A study of Homo sapiens with 9 samples.

Results

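The 9 genes described here are the grainyhead-like transcription factors GRHL1, GRHL2 and GRHL3, the zinc finger repressors OVOL1 and OVOL2, the ETS factors ELF3 and EHF, and the RNA-binding splicing regulators ESRP1 and ESRP2. They were taken by gene symbol from a table of 62666 genes and were chosen by the measured counts of GRHL2, which were absent in MCF10A and present in both lines derived from it. Polyadenylated RNA was sequenced in 9 libraries, 3 for each of 3 related human mammary epithelial cell lines that stand for stages of breast cancer. MCF10A is a non-tumorigenic line. MCF10AT1 is MCF10A carrying an activated HRAS gene and models the premalignant state. MCF10Ca1a belongs to the same lineage and forms malignant tumours in mice. The labels give no treatment, and each stage is represented by a single line. The medium of every line held insulin, epidermal growth factor, hydrocortisone and cholera toxin, but the horse serum was 2.5% for MCF10AT1 and 5% for the others, so serum and line cannot be told apart in comparisons with MCF10AT1.

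Epithelial cells keep their state through a small set of transcription factors and splicing factors. GRHL proteins bind enhancers and promoters of junction, polarity and barrier genes and keep them open. OVOL proteins repress inducers of the epithelial-mesenchymal transition (EMT), among them ZEB1, which in turn represses epithelial genes and the miR-200 microRNAs. ELF3 and EHF are ETS factors whose expression is largely limited to epithelia, and ESRP1 and ESRP2 promote the epithelial choice of alternative exons in transcripts such as those of CD44, ENAH and SLK.

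Libraries held 32.9 to 69.5 M (mega) estimated counts, with 32.9 to 35.2 M in MCF10Ca1a and at least 62.9 M in the others. HRAS reached 40.96 ± 1.95 CPM (counts scaled to the library total, with TMM factors; mean ± SD, n = 3 here and below) in MCF10A, 97.6 ± 2.94 CPM in MCF10AT1 and 145.3 ± 3.59 CPM in MCF10Ca1a. Of 8 epithelial identity genes, 7 reached a mean of 1 TPM (a level per transcript length) in both MCF10A and MCF10AT1, as did all 8 in MCF10Ca1a. KRT19 was the gene under that level. The epithelial markers summed to between 1796 and 3055 TPM in each library. Of 6 fibroblast markers, 2, 1 and 1 reached 1 TPM in the lines in that order, and of 4 leukocyte markers only CD68 did in each line. The fibroblast markers summed to between 6.43 and 7.21 TPM in MCF10A, 27.6 and 31.5 TPM in MCF10AT1, and 1.92 and 2.29 TPM in MCF10Ca1a. The leukocyte markers summed to between 8.35 and 13.0 TPM in MCF10A, 2.65 and 2.71 TPM in MCF10AT1, and 30.2 and 33.1 TPM in MCF10Ca1a. PECAM1 was the only 1 of 4 endothelial markers at 1 TPM, in the derived lines, where the endothelial list summed to between 0.868 and 1.32 TPM in MCF10AT1 and 15.6 and 20.8 TPM in MCF10Ca1a, against 0.674 to 0.901 TPM in MCF10A. The other leukocyte and endothelial markers, PTPRC, CD3E, LYZ, CDH5, KDR and VWF, stayed under 1 TPM in every line. The fibroblast markers at 1 TPM were COL1A1 and DCN in MCF10A, DCN in MCF10AT1 and COL1A1 in MCF10Ca1a. DCN was 6.93-fold higher in MCF10AT1 and 25.4-fold lower in MCF10Ca1a than in MCF10A. PECAM1 was 14.5-fold higher in MCF10Ca1a than in MCF10A, and CD68 was 2.84-fold higher. The part of these markers in the differences between lines was not tested. In bulk libraries, fewer expressing cells and less RNA per cell cannot be told apart. Nothing in the labels says that the 3 libraries of a line came from separate cultures, so p-values measure only the spread between these samples, which may be technical.

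All 9 genes passed the filter on low counts, GRHL2 and OVOL1 only through the derived lines. Without GRHL2, whose pattern chose the set, 6 of the other 8 genes changed between MCF10A and MCF10AT1, 5 higher and 1 lower. Over all 17910 genes tested, 61.6% changed in this comparison, 29.8% higher and 31.8% lower (edgeR quasi-likelihood test, Benjamini-Hochberg adjusted p under 0.05). Between MCF10A and MCF10Ca1a, 8 of 8 changed, 7 higher and 1 lower, against a background of 80.9%, with 39.0% higher and 41.9% lower. Between MCF10AT1 and MCF10Ca1a, 9 of 9 changed with GRHL2 included, 6 higher and 3 lower, against 78.4%, with 38.0% higher and 40.3% lower. These counts are descriptions, since the set was chosen with these comparisons in view. OVOL1 is counted among the higher genes against MCF10A, but it was admitted only by the derived lines and so had to differ. The median log2 change of the 8 genes was 0.55, 1.51 and 1.29 in the 3 comparisons in that order, where the median over all genes was -0.00, -0.05 and -0.04. On deposited TPM with limma, 36.2% of the genes called between MCF10A and MCF10AT1 were higher in MCF10AT1, against 48.4% on counts, and 61.6% of those called between the derived lines were higher in MCF10Ca1a, against 48.5%. On log2(TPM + 0.1) the median of all genes shifted by -0.11, 0.10 and 0.21 in the 3 comparisons, and on log2(TPM + 1) by 0.13 in the last.

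**Figure D1:**
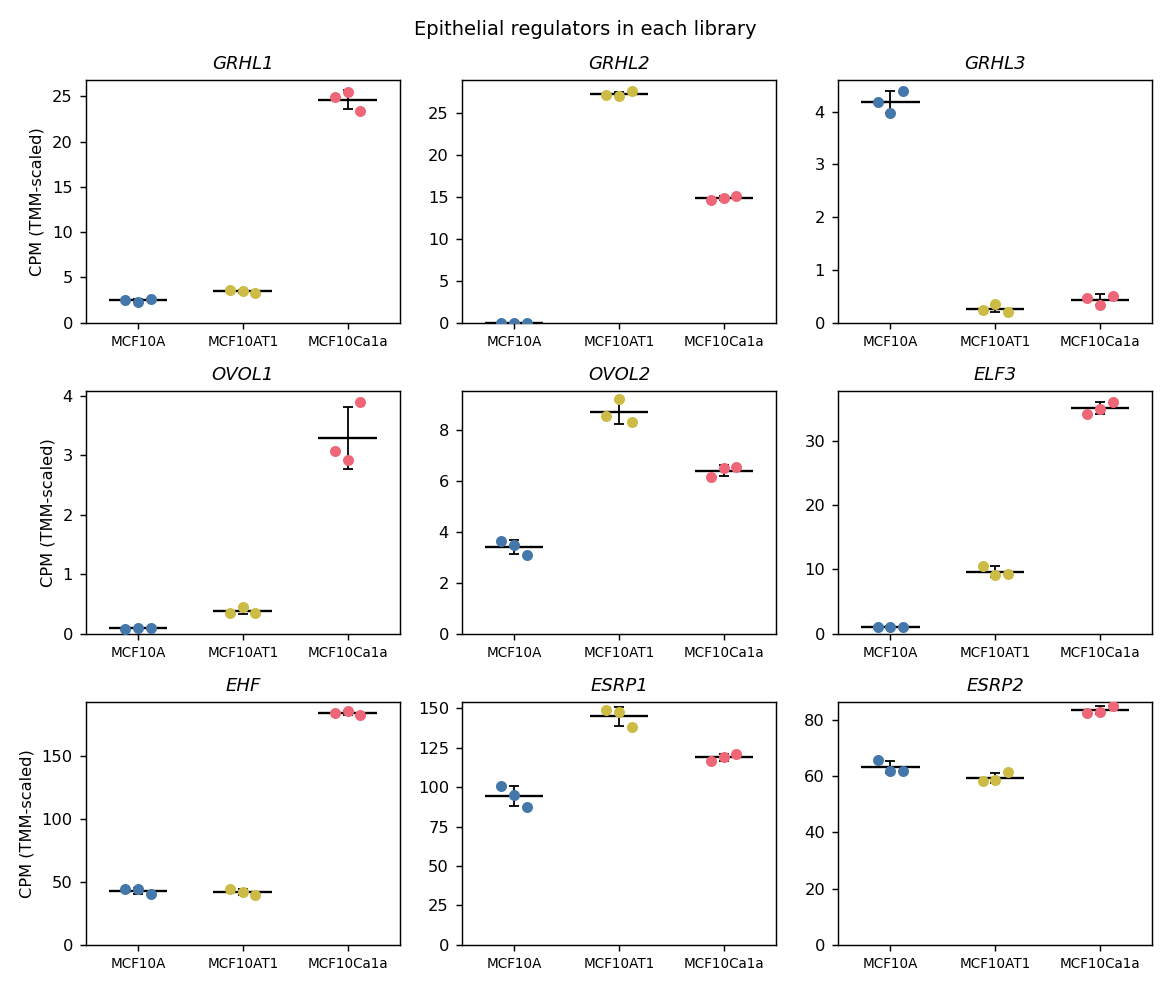
Level of each of the 9 genes in the 9 libraries, in CPM on a linear axis that starts at 0. Points are libraries, horizontal lines are means of 3 and bars are SDs. GRHL2 is at 0 in the 3 MCF10A libraries, GRHL3 is high only there, and GRHL1, OVOL1, ELF3 and EHF are highest in MCF10Ca1a.

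The GRHL genes changed places from line to line. GRHL2 (ENSG00000083307.12), the family member most studied in breast epithelium, lies on chromosome 8 from 101492432 to 101669726 on the plus strand (GRCh38, GENCODE 29). Its counts were 0 in each MCF10A library, 1810, 1792 and 1711 in the MCF10AT1 libraries and 523, 500 and 536 in the MCF10Ca1a libraries. At the normalised scale this was 27.1, 27.0 and 27.6 CPM in MCF10AT1 and 14.6, 14.9 and 15.1 CPM in MCF10Ca1a. All libraries of both derived lines were therefore far above all those of MCF10A, and those of MCF10AT1 above those of MCF10Ca1a. Against a floor of 3 counts per MCF10A library, which covers counting error only, GRHL2 was at least 600.6-fold higher in MCF10AT1 and at least 327.6-fold higher in MCF10Ca1a. These values chose the set and carry no test. A single transcript, ENST00000646743, held 98.4% ± 0.569 of the estimated transcript counts of GRHL2 in MCF10AT1 and 97.8% ± 0.839 in MCF10Ca1a. Between the derived lines GRHL2 was 1.83-fold lower in MCF10Ca1a (log2 change -0.87, SE 0.0571, edgeR adjusted p = 3.35e-08).

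GRHL1 (ENSG00000134317.18, chromosome 2, 9951693 to 10002277, plus strand), a factor of desmosome and epidermal genes, measured 2.54, 2.29 and 2.59 CPM in MCF10A, 3.55, 3.53 and 3.25 CPM in MCF10AT1, and 25.0, 25.4 and 23.4 CPM in MCF10Ca1a. The MCF10Ca1a libraries stood far above the other 6, and the MCF10AT1 libraries were above those of MCF10A without overlap. GRHL1 rose 1.39-fold in MCF10AT1 (log2 change 0.48, SE 0.0866, edgeR adjusted p = 0.000293), a call lost on log2(TPM + 1) with limma (0.17, adjusted p = 0.117). It rose 9.94-fold in MCF10Ca1a over MCF10A (log2 change 3.31, SE 0.0805, edgeR adjusted p = 1.86e-13) and 7.14-fold over MCF10AT1 (adjusted p = 9.79e-13). The change over MCF10A was 2.59 on log2(TPM + 1), past the threshold (limma).

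GRHL3 (ENSG00000158055.17, chromosome 1, 24319322 to 24364482, plus strand), the family member best known for skin barrier formation and wound closure, ran the other way. The MCF10A libraries held 269, 258 and 307 counts, those of MCF10AT1 16, 23 and 13, and those of MCF10Ca1a 17, 11 and 18. In CPM these were 4.19, 3.98 and 4.40, then 0.240, 0.347 and 0.209, then 0.475, 0.327 and 0.508. Every MCF10A library was above every derived library, and the derived lines overlapped with each other. GRHL3 fell 15.6-fold in MCF10AT1 (log2 change -3.97, SE 0.185, edgeR adjusted p = 5.07e-10) and 9.53-fold in MCF10Ca1a (log2 change -3.25, SE 0.191, adjusted p = 1.37e-09) against MCF10A. The values were -1.31 and -1.07 on log2(TPM + 1), which understates changes of low genes, and -3.97 and -2.60 on length-scaled counts, all past the threshold (limma and edgeR). The difference between the derived lines (log2 change 0.71, SE 0.259, edgeR adjusted p = 0.0219) rested on 11 to 23 counts per library, and was 1.38 on length-scaled counts and 0.25 on log2(TPM + 1). It was lost when MCF10AT1 replicate 1 or 3, or MCF10Ca1a replicate 1 or 3, was left out (adjusted p = 0.0682, 0.0901, 0.0744 and 0.109), and without the filter on low counts (adjusted p = 0.0667).

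Levels of different genes can be set side by side per transcript length, in TPM. The 3 GRHL genes summed to 2.79 ± 0.264 TPM in MCF10A, 7.79 ± 0.587 TPM in MCF10AT1 and 15.9 ± 0.879 TPM in MCF10Ca1a, with no overlap between lines. GRHL3 made up 62.3% ± 1.51 of the sum in MCF10A and GRHL1 the other 37.7% ± 1.51. GRHL2 made up 81.9% ± 0.193 in MCF10AT1, where GRHL1 took 16.9% ± 0.322. GRHL1 made up 71.3% ± 0.817 in MCF10Ca1a, where GRHL2 took 26.6% ± 1.31 and GRHL3 2.04% ± 1.52. Each line thus had a different leading GRHL gene. The leading gene was the same in all 3 libraries of a line. Since GRHL2 chose the set, these shares are descriptions.

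**Figure D2:**
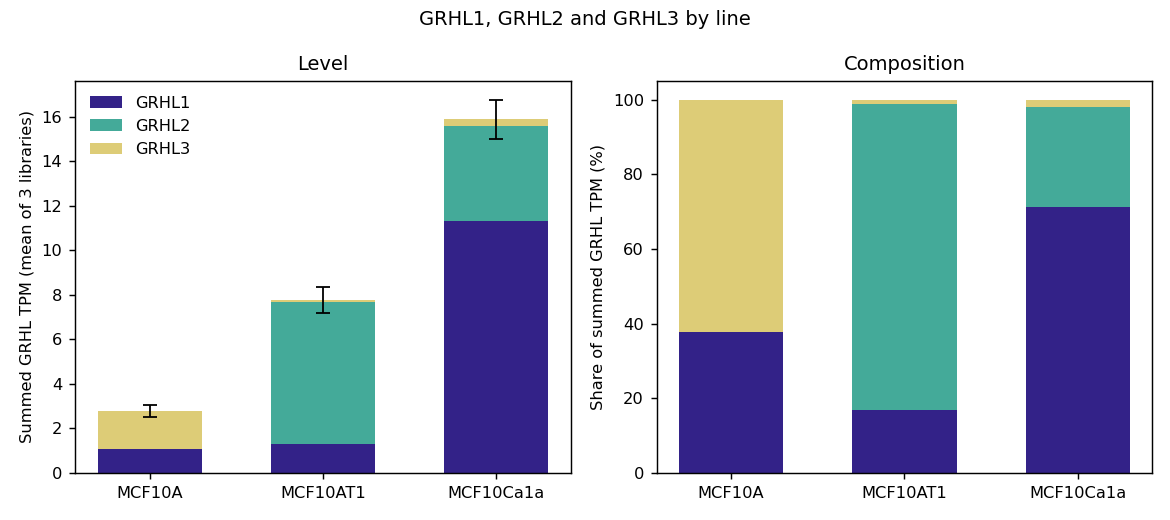
Left, mean TPM of GRHL1, GRHL2 and GRHL3 stacked for each line, with the SD of the summed TPM over 3 libraries as bars. Right, the mean share of each gene in that sum. GRHL3 leads in MCF10A (62.3%), GRHL2 in MCF10AT1 (81.9%) and GRHL1 in MCF10Ca1a (71.3%).

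OVOL1 (ENSG00000172818.10, chromosome 11, 65787022 to 65797219, plus strand) was scarce in MCF10A and higher in each derived line. The MCF10A libraries held 5, 6 and 7 counts, those of MCF10AT1 23, 30 and 22, and those of MCF10Ca1a 110, 98 and 138. The libraries of the 3 lines did not overlap, but the low end rests on a handful of counts. The fitted level was 4.16-fold higher in MCF10AT1 than in MCF10A (log2 change 2.06, SE 0.288), given without a test because OVOL1 passed the filter only through the derived lines. Between the derived lines OVOL1 rose 8.53-fold (log2 change 3.09, SE 0.193, edgeR adjusted p = 3.28e-09). On log2(TPM + 1), where its MCF10A level was 0.0371 ± 0.00233 TPM, MCF10AT1 was higher by 0.14, and the rise between the derived lines was 1.12, past the threshold (limma).

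OVOL2 (ENSG00000125850.11, chromosome 20, 17956979 to 18059188, minus strand), a repressor of ZEB1, was highest in MCF10AT1. It measured 3.63, 3.49 and 3.11 CPM in MCF10A, 8.56, 9.25 and 8.33 CPM in MCF10AT1, and 6.17, 6.54 and 6.54 CPM in MCF10Ca1a, without overlap between lines. OVOL2 rose 2.56-fold in MCF10AT1 (log2 change 1.35, SE 0.0874, edgeR adjusted p = 1.34e-08) and 1.88-fold in MCF10Ca1a (log2 change 0.91, SE 0.0925, adjusted p = 5.22e-07) against MCF10A. The fall between the derived lines (log2 change -0.44, SE 0.0872, edgeR adjusted p = 0.000369) was not called on log2(TPM + 1) (-0.17, limma adjusted p = 0.201). OVOL2 supplied 98.95% ± 0.253 of the OVOL1 and OVOL2 TPM in MCF10A, 98.2% ± 0.188 in MCF10AT1 and 82.2% ± 2.56 in MCF10Ca1a. The minor share of OVOL1 was therefore larger in MCF10Ca1a than in any library of the other lines.

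ELF3 (ENSG00000163435.16, chromosome 1, 202007945 to 202017188, plus strand), an ETS factor of simple and glandular epithelia that responds to inflammatory signals, rose in steps. It measured 0.982, 1.11 and 1.07 CPM in MCF10A, 10.6, 9.11 and 9.29 CPM in MCF10AT1, and 34.1, 34.9 and 36.0 CPM in MCF10Ca1a. The 3 lines formed separate bands. ELF3 rose 9.13-fold in MCF10AT1 (log2 change 3.19, SE 0.0907, edgeR adjusted p = 3.41e-12), 33.1-fold in MCF10Ca1a over MCF10A (log2 change 5.05, SE 0.0872, adjusted p = 8.11e-15) and 3.62-fold between the derived lines (adjusted p = 1.16e-11). The changes against MCF10A were 2.15 and 4.21 on log2(TPM + 1), both past the threshold (limma). An antisense transcript, ELF3-AS1, overlaps the annotated start of ELF3 and held 5 to 18 counts per library, against 63 to 1276 for ELF3. A further gene model within ELF3, ENSG00000249007, held 0 to 13 counts.

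EHF (ENSG00000135373.13, chromosome 11, 34621093 to 34661057, plus strand), the close ETS relative of ELF3 and an epithelial factor of glands, rose at the second step. It measured 44.3, 44.2 and 39.9 CPM in MCF10A, 44.6, 41.8 and 39.8 CPM in MCF10AT1, and 184, 185 and 182 CPM in MCF10Ca1a. MCF10A and MCF10AT1 overlapped, and MCF10Ca1a stood above both. EHF was 4.29-fold higher in MCF10Ca1a than in MCF10A (log2 change 2.10, SE 0.0589, edgeR adjusted p = 6.80e-13) and 4.37-fold higher than in MCF10AT1 (adjusted p = 1.09e-12). Between MCF10A and MCF10AT1 the count test gave -0.03 on the log2 scale (SE 0.058, edgeR adjusted p = 0.729), whereas the authors' length-scaled counts gave -0.32 (adjusted p = 0.00125) and log2(TPM + 1) gave -0.41 (limma adjusted p = 0.00318). In TPM, EHF held 96.4% ± 0.929 of the sum of ELF3 and EHF in MCF10A, 66.1% ± 1.69 in MCF10AT1 and 68.1% ± 1.04 in MCF10Ca1a.

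Both splicing regulators were abundant in every line and changed by at most 1.54-fold. ESRP1 (ENSG00000104413.18, chromosome 8, 94641074 to 94707466, plus strand) measured 100.4, 94.9 and 87.6 CPM in MCF10A, 148.6, 147.9 and 137.8 CPM in MCF10AT1, and 116.5, 119.1 and 121.0 CPM in MCF10Ca1a. The lines did not overlap, with MCF10AT1 highest and MCF10A lowest. ESRP1 rose 1.54-fold in MCF10AT1 (log2 change 0.62, SE 0.0577, edgeR adjusted p = 5.88e-07) and 1.26-fold in MCF10Ca1a (log2 change 0.33, SE 0.0581, adjusted p = 0.000114) against MCF10A. The fall between the derived lines (log2 change -0.28, edgeR adjusted p = 0.000471) was not called on log2(TPM + 1) (-0.16, limma adjusted p = 0.117).

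ESRP2 (ENSG00000103067.14, chromosome 16, 68229111 to 68238102, minus strand), the paralog with a largely shared set of target exons, measured 65.7, 61.9 and 61.9 CPM in MCF10A, 58.1, 58.5 and 61.5 CPM in MCF10AT1, and 82.5, 82.7 and 85.0 CPM in MCF10Ca1a. The libraries of the 3 lines did not overlap, with MCF10AT1 lowest by a narrow gap and MCF10Ca1a highest. ESRP2 rose 1.32-fold in MCF10Ca1a over MCF10A (log2 change 0.40, SE 0.0485, edgeR adjusted p = 3.35e-06) and 1.40-fold over MCF10AT1 (log2 change 0.49, SE 0.0486, adjusted p = 4.52e-07). Between MCF10A and MCF10AT1 the log2 change was -0.09 (SE 0.0481, edgeR adjusted p = 0.124) on counts and -0.18 on log2(TPM + 1) (limma adjusted p = 0.0393). The ESRP genes summed to 78.0 ± 8.32 TPM in MCF10A, 97.0 ± 3.69 TPM in MCF10AT1 and 103.7 ± 1.88 TPM in MCF10Ca1a. ESRP1 held 65.4% ± 1.25 of that sum in MCF10A, 75.6% ± 1.95 in MCF10AT1 and 63.3% ± 1.18 in MCF10Ca1a.

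Ordered by TPM, MCF10A ran ESRP1 (51.1 ± 6.36), ESRP2 (27.0 ± 2.00), EHF (16.3 ± 2.23), OVOL2 (3.62 ± 0.690), GRHL3 (1.73 ± 0.121), GRHL1 (1.05 ± 0.143), ELF3 (0.596 ± 0.0858), OVOL1 and GRHL2. In MCF10AT1 the order was ESRP1 (73.4 ± 4.64), ESRP2 (23.7 ± 0.946), EHF (11.9 ± 0.659), OVOL2 (7.85 ± 0.559), GRHL2 (6.37 ± 0.473), ELF3 (6.10 ± 0.353), GRHL1 (1.31 ± 0.0933), OVOL1 (0.144 ± 0.0226) and GRHL3 (0.1001 ± 0.0271). In MCF10Ca1a it was ESRP1 (65.7 ± 1.73), EHF (60.8 ± 0.653), ESRP2 (38.1 ± 1.38), ELF3 (28.5 ± 1.08), GRHL1 (11.3 ± 0.710), OVOL2 (6.88 ± 0.414), GRHL2 (4.24 ± 0.413), OVOL1 (1.49 ± 0.238) and GRHL3 (0.316 ± 0.216). Neighbours in these orders did not overlap between libraries, except GRHL2 and ELF3 in MCF10AT1. ESRP1 led in every line, EHF overtook ESRP2 in MCF10Ca1a, and GRHL3 moved from the fifth place in MCF10A to the last in both derived lines. In MCF10AT1 its place below OVOL1 was nearly a tie. The highest GRHL3 library there had 0.1298 TPM and the lowest OVOL1 library 0.1303 TPM, at 13 to 30 counts per library.

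Transcript usage could be tested for OVOL2, ESRP1 and ELF3, with a per-gene test of whether any transcript's share of its gene shifted. ESRP1 usage changed between MCF10A and MCF10Ca1a (limma on transcript shares, Simes p per gene, adjusted p = 0.000394) and between the derived lines (adjusted p = 0.00102), while it gave an adjusted p of 0.636 between MCF10A and MCF10AT1. Transcript ENST00000519505 carried 14.0% ± 0.705 of the estimated transcript counts of ESRP1, a share not scaled by transcript length, in MCF10A, 12.2% ± 0.700 in MCF10AT1 and 4.59% ± 0.879 in MCF10Ca1a. Transcript ENST00000646773 went from 18.5% ± 1.76 through 20.6% ± 2.69 to 26.05% ± 1.19, and ENST00000433389 stayed the most used at 42.9% ± 2.97, 41.5% ± 4.25 and 44.5% ± 2.85. ELF3 usage passed in both comparisons with MCF10A (limma, adjusted p = 9.10e-05 and 9.90e-06), where 63 to 75 counts had to be divided among transcripts, and did not pass between the derived lines (adjusted p = 0.0685). Its transcript ENST00000367283 took 29.3% ± 29.7 of ELF3 transcript counts in MCF10A, 32.0% ± 5.02 in MCF10AT1 and 56.1% ± 1.83 in MCF10Ca1a. The SD in MCF10A is as large as the mean, so this share was not measurable there at this depth and both calls rest on that line. OVOL2 usage passed in none of the comparisons (adjusted p = 0.654, 0.615 and 0.741).

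Promoters of 4 of the 9 genes, GRHL1, GRHL3, ELF3 and EHF, were matched in the RefSeq table (GRCh38.p14, 250 bases before to 50 bases after the start site). Both shown here hold the letters CACCTG, the E-box form bound by ZEB and SNAI repressors, and they belong to the gene that fell in both derived lines and to one that rose in both. Capitals mark CACCTG and, in GRHL3, the ETS core AGGAAG; the windows lie at chr1:24319107-24319406 and chr1:202010337-202010636 on the plus strand.
GRHL3: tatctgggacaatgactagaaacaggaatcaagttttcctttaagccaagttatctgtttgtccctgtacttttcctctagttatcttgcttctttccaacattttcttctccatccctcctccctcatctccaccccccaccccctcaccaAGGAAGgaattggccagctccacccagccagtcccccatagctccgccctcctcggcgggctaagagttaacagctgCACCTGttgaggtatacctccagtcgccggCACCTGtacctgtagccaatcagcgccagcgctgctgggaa
ELF3: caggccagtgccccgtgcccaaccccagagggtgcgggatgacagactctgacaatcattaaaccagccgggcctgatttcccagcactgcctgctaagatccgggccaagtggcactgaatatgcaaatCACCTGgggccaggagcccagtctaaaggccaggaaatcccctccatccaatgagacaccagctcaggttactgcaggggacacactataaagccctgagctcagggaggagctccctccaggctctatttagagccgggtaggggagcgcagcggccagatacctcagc
In GRHL3, CACCTG begins at -21 and 10 from the start site and AGGAAG at -98, and in ELF3 CACCTG begins at -120. The windows of GRHL1 and EHF held none of the 5 motifs searched. Read on both strands, CACCTG was in 20.6% of all 35116 promoters of this length, AGGAAG in 33.6%, the OVOL core CCGTTA in 3.07%, the GRHL palindrome AACCGGTT in 0.134% and its looser form AACNNGTT in 3.52%. GRHL1 has a GC-rich window (79.7% G or C), against 53.0% for GRHL3, 59.0% for ELF3 and 51.3% for EHF. A match is a description of letters and not of binding.

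Genes that GRHL factors are known to bind or need were followed as a list of 30, of which 28 were tested; CLDN3 and DSG1 did not pass the filter. Between MCF10A and MCF10AT1, 15 rose, 7 fell and 6 did not pass, with a median log2 change of 0.58, where 29.8% of all genes tested rose and 31.8% fell. Between MCF10A and MCF10Ca1a, 23 rose and 5 fell, with a median of 1.62, and between the derived lines 22 rose, 5 fell and 1 did not pass, with a median of 0.98. Of all genes tested, 39.0% rose and 41.9% fell in the former comparison, and 38.0% rose and 40.3% fell in the latter. On log2(TPM + 1) the counts were 14 higher and 7 lower at the first step, with a median of 0.13, and 23 higher and 4 lower in MCF10Ca1a against MCF10A, with a median of 1.42. Between the derived lines they were 24 higher and 2 lower, with a median of 1.03. These comparisons share libraries, so they do not support each other.

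CLDN4, a tight junction claudin and a known direct target of GRHL2, measured 2.04, 1.81 and 1.46 CPM in MCF10A, 73.4, 68.8 and 65.1 CPM in MCF10AT1, and 176, 173 and 188 CPM in MCF10Ca1a. Its 3 lines were far apart, and it rose 39.1-fold at the first step (log2 change 5.29, SE 0.0956, edgeR adjusted p = 3.29e-14) and 2.59-fold at the second (log2 change 1.37, adjusted p = 3.54e-10). RAB25, a recycling GTPase of epithelial cells, rose 11.5-fold in MCF10AT1 (log2 change 3.52, edgeR adjusted p = 4.42e-14) and 32.5-fold in MCF10Ca1a (log2 change 5.02, adjusted p = 1.17e-15) against MCF10A. PRSS8, a membrane-anchored protease, rose by 0.70 and 3.53 on the log2 scale in the same comparisons (edgeR adjusted p = 2.00e-06 and 6.08e-14). CDH1, which encodes E-cadherin, did not pass at the first step. It measured 145.3 ± 25.2 CPM in MCF10A and 144.6 ± 2.77 CPM in MCF10AT1 (log2 change -0.01, SE 0.0929, edgeR adjusted p = 0.959) and 748 ± 19.7 CPM in MCF10Ca1a. It was chosen for mention after its values were seen.

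Some genes of the list moved against the rest. TGM5, an epidermal transglutaminase, fell 5.09-fold in MCF10AT1 (log2 change -2.35, SE 0.157, edgeR adjusted p = 1.93e-08) and rose 14.6-fold in MCF10Ca1a (log2 change 3.87, adjusted p = 3.20e-13) against MCF10A. TGM1, the keratinocyte transglutaminase of the cornified envelope and a known target of GRHL3, fell in both, with 13.2, 13.2 and 14.1 CPM in MCF10A, 6.16, 6.52 and 6.85 CPM in MCF10AT1, and 2.23, 2.32 and 2.26 CPM in MCF10Ca1a (log2 changes -1.05 and -2.57, edgeR adjusted p = 2.41e-08 and 4.18e-12). MAL2, a protein of apical transport, fell by 0.43 and 1.18 on the log2 scale (edgeR adjusted p = 1.60e-05 and 1.75e-10). PKP3, a desmosomal plakophilin, fell by 0.31 and 0.57 (edgeR adjusted p = 0.00087 and 1.67e-06). MARVELD2, a tricellular junction protein, fell by 0.22 and 0.51 (edgeR adjusted p = 0.0133 and 1.92e-05). Its first value was lost without MCF10AT1 replicate 1 (adjusted p = 0.0588) or 3 (adjusted p = 0.0529). The call was also lost on length-scaled and scaled counts (edgeR adjusted p = 0.0522 and 0.0743) and on log2(TPM + 1) without a filter (limma adjusted p = 0.0655).

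**Figure D3:**
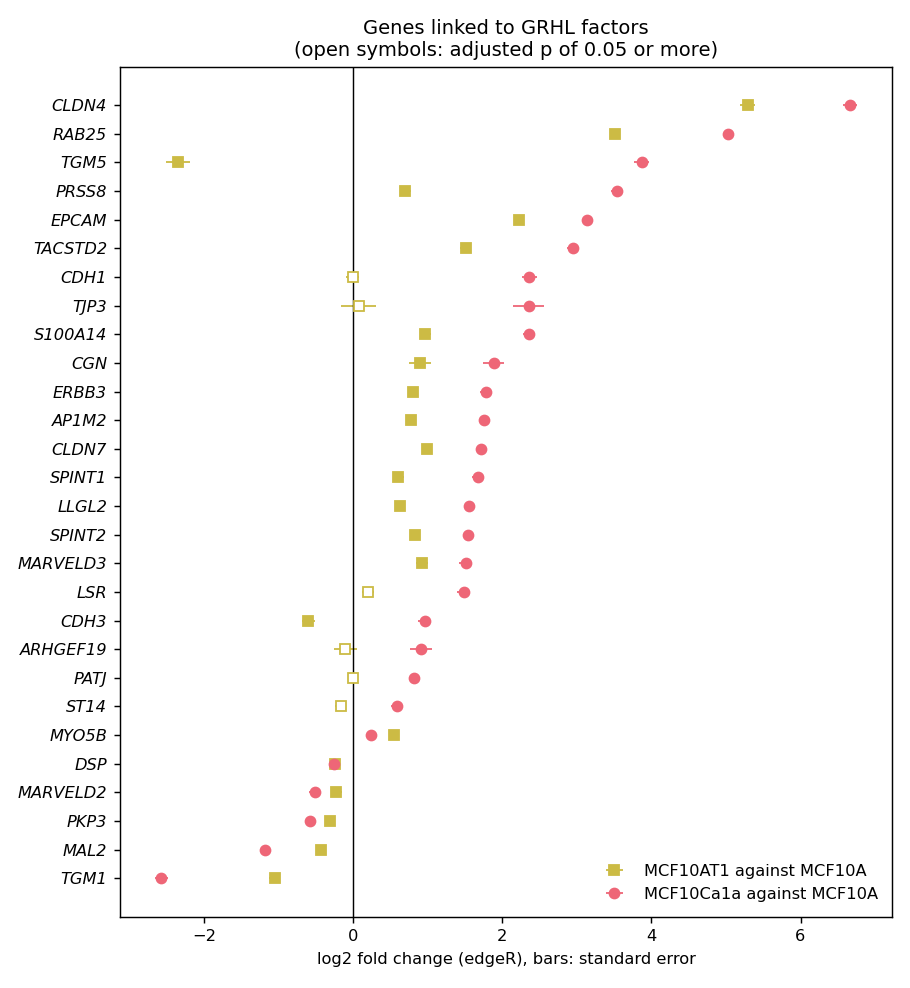
Fitted log2 fold change against MCF10A of the 28 tested genes linked to GRHL factors, in MCF10AT1 (squares) and MCF10Ca1a (circles), with standard errors as bars; both series share the MCF10A libraries. Open symbols did not pass. CLDN4 and RAB25 are at the top in both lines, TGM5 is on opposite sides of 0, and TGM1, MAL2, PKP3, MARVELD2 and DSP lie below 0.

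Factors that drive EMT and oppose the epithelial set were lower in MCF10Ca1a, with SNAI1 the exception. Of 8 listed factors 7 were tested; PRRX1 did not pass the filter. In MCF10AT1 against MCF10A, 3 rose, 3 fell and SNAI2 did not pass, with a median log2 change of -0.03, where 29.8% of all genes tested rose and 31.8% fell. On log2(TPM + 1) SNAI2 was called lower (-0.17, limma adjusted p = 0.0147), and the list then had 2 higher and 4 lower. In MCF10Ca1a, 6 fell and 1 rose against MCF10A (median -1.96) and likewise against MCF10AT1 (median -1.96), where 41.9% and 40.3% of all genes tested fell. On log2(TPM + 1) these medians were -1.23 and -0.68, with the same numbers in each direction. ZEB1, which represses ESRP1, CDH1 and the miR-200 genes in other cells, measured 7.79, 8.49 and 8.91 CPM in MCF10A, 5.38, 5.25 and 5.41 CPM in MCF10AT1, and 1.48, 1.28 and 0.79 CPM in MCF10Ca1a. The lines did not overlap, and ZEB1 fell by 0.65 (SE 0.117, edgeR adjusted p = 0.000272) and 2.83 (SE 0.152, adjusted p = 5.20e-10) on the log2 scale against MCF10A. ZEB2, its paralog, rose by 0.43 in MCF10AT1 (edgeR adjusted p = 0.0033), a call lost on log2(TPM + 1) (0.15, limma adjusted p = 0.107), and fell by 1.53 in MCF10Ca1a (adjusted p = 1.09e-07).

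TWIST2 showed the largest difference of the 7 factors in MCF10Ca1a. The MCF10A libraries held 1177, 1046 and 1268 counts, those of MCF10AT1 905, 924 and 865, and those of MCF10Ca1a 7, 7 and 8, and it fell by 6.37 on the log2 scale against MCF10A (SE 0.128, edgeR adjusted p = 3.20e-14). TWIST1 rose by 0.49 in MCF10AT1 (edgeR adjusted p = 4.01e-05) and fell by 1.96 in MCF10Ca1a (adjusted p = 8.22e-11). TCF4, an E-protein partner of bHLH factors, fell by 1.17 and 2.46 (edgeR adjusted p = 2.24e-07 and 1.46e-10). SNAI2, the most abundant of them at 100.6 ± 3.05 CPM in MCF10A, fell by 1.06 in MCF10Ca1a (edgeR adjusted p = 7.60e-11) and measured 98.5 ± 1.48 CPM in MCF10AT1. SNAI1 rose at both steps, by 1.24 in MCF10AT1 (edgeR adjusted p = 1.92e-05) and 3.75 in MCF10Ca1a (adjusted p = 2.97e-11) against MCF10A.

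The microRNAs of the ZEB loop are printed here because their host transcripts were measured; capitals mark the seed, bases 2 to 8 (RefSeq, GRCh38.p14). The seeds of miR-200c-3p and miR-141-3p differ from each other, and that of miR-205-5p is unrelated to both.
hsa-miR-200c-3p: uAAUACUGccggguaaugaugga
hsa-miR-141-3p: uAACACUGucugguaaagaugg
hsa-miR-205-5p: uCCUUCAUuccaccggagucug
MIR200CHG, the host transcript of the first pair, measured 1.65, 1.76 and 1.92 CPM in MCF10A, 1.54, 1.25 and 1.45 CPM in MCF10AT1, and 4.33, 4.22 and 4.65 CPM in MCF10Ca1a. It rose 2.47-fold in MCF10Ca1a over MCF10A (log2 change 1.31, SE 0.124, edgeR adjusted p = 2.65e-07). Its lower value in MCF10AT1 (log2 change -0.33, edgeR adjusted p = 0.0401) was lost with the DESeq2 Wald test (adjusted p = 0.0816), and when any of MCF10A replicates 2 and 3, MCF10AT1 replicates 2 and 3, or MCF10Ca1a replicates 1 and 2 was left out (adjusted p = 0.0746, 0.125, 0.155, 0.063, 0.0513 and 0.0541). The call was also lost without the filter on low counts and with only the 2 lines compared (edgeR adjusted p = 0.127 and 0.0861). MIR205HG fell by 1.15 in MCF10AT1 (edgeR adjusted p = 1.52e-09) and rose by 0.95 in MCF10Ca1a (adjusted p = 2.87e-09) against MCF10A. Mature microRNAs are not measured in polyadenylated RNA.

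**Figure D4:**
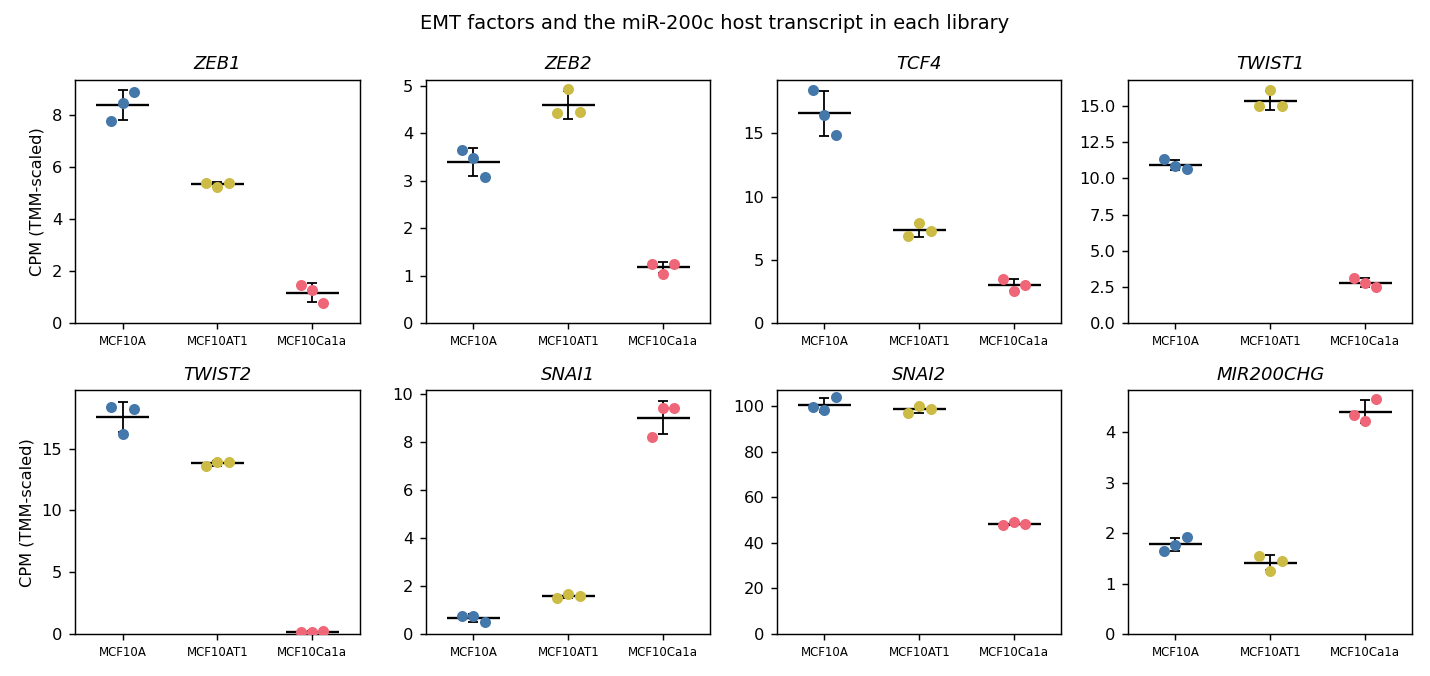
CPM of 7 EMT factors and of the miR-200c host transcript in each library, on linear axes that start at 0; lines are means of 3 and bars are SDs. In MCF10Ca1a the ZEB, TWIST, TCF4 and SNAI2 points lie below those of MCF10A, and SNAI1 and MIR200CHG lie above.

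Exons that ESRP proteins are known to regulate were read from the transcript estimates, as the share of TPM in transcripts that include the exon among those that include or skip it. CD44, a hyaluronan receptor, showed the widest spread between lines. The 3 variable exons of its transcript ENST00000433892 lie at chr11:35208105-35208206, chr11:35209965-35210054 and chr11:35211246-35211449 on the plus strand (GRCh38), and the SLK exon, at chr10:104010816-104010908 on the plus strand, is shown beside them because it changed at the first step as well. All are cassette exons between coding exons, printed in lower case since no position in them is singled out.
CD44 variable exon 1 of 3: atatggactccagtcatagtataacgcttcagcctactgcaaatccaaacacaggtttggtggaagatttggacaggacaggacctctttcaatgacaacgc
CD44 variable exon 2 of 3: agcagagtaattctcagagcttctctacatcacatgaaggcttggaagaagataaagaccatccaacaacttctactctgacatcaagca
CD44 variable exon 3 of 3: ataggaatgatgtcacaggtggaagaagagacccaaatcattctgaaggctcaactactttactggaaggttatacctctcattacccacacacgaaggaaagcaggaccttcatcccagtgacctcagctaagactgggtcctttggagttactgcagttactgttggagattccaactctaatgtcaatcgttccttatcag
SLK: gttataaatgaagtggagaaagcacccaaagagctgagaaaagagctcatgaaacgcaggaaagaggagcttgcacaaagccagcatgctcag
CD44 transcripts with variable exons made up 43.7%, 43.2% and 43.2% in the MCF10A libraries, 58.0%, 57.6% and 56.0% in MCF10AT1, and 83.3%, 82.7% and 83.1% in MCF10Ca1a. The lines did not overlap. Transcripts of either class held 61.2% to 73.3% of CD44 TPM, and the rest was left out. The difference from MCF10A was 13.8 percentage points in MCF10AT1 and 39.7 in MCF10Ca1a, each with an exact two-sided permutation p = 0.1, the smallest that 3 against 3 libraries can give. The fit across all genes called CD44 in the 3 comparisons (limma on transcript shares, adjusted p = 0.00221, 1.71e-06 and 1.80e-05). Transcript ENST00000433892 alone went from 18.9% ± 0.322 of all estimated transcript counts of CD44, a share not scaled by transcript length, in MCF10A to 31.6% ± 1.04 and 59.2% ± 0.291, while the standard form ENST00000263398 went from 60.3% ± 0.339 to 48.6% ± 1.45 and 19.8% ± 0.291. The level of CD44 itself was 503 ± 54.5 CPM in MCF10A, 642 ± 17.4 CPM in MCF10AT1 (log2 change 0.35, edgeR adjusted p = 0.000723) and 541 ± 11.7 CPM in MCF10Ca1a (0.10, adjusted p = 0.187).

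SLK, a kinase of the cytoskeleton, included its exon in 27.8%, 29.1% and 31.6% of transcripts in the MCF10A libraries, 42.6%, 37.0% and 40.6% in those of MCF10AT1, and 49.2%, 40.7% and 42.0% in those of MCF10Ca1a. The derived lines lay above MCF10A (exact permutation p = 0.1) and overlapped with each other (exact permutation p = 0.4). ENAH, an actin regulator, included its exon in 71.5% ± 0.955 in MCF10A, 69.7% ± 1.71 in MCF10AT1 and 76.7% ± 1.002 in MCF10Ca1a, with MCF10Ca1a above both others. The main including ENAH transcript is annotated as a retained intron, so its share is not that of a coding form. MAP3K7, which encodes the kinase TAK1, included its exon in 18.04% ± 2.81, 10.2% ± 5.86 and 39.8% ± 11.3, but only 34.6% to 66.2% of its TPM could be assigned to either class. The assigned part was 57.8% to 65.4% for ENAH, 63.2% to 68.5% for CTNND1, 34.0% to 91.1% for FGFR2 and 99.7% to 100% for SLK. Inclusion of the SLK and MAP3K7 exons is not taken here as the epithelial choice. Their shares are therefore not read as a shift toward either state. The long form of CTNND1, p120-catenin with the first start codon and typical of mesenchymal cells, made up 6.90% ± 0.961 in MCF10A, 2.10% ± 1.06 in MCF10AT1 and 3.03% ± 1.07 in MCF10Ca1a, with MCF10A above both (exact permutation p = 0.1). FGFR2, whose IIIb exon is the epithelial choice, held only 12.4 to 399.6 counts in transcripts that could be classed, and its IIIb share of 79.4% ± 8.99, 93.3% ± 11.6 and 78.5% ± 27.3 was not distinguishable between lines at this depth.

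Of 19 genes with such exons, 17 could be tested for transcript shares. Between MCF10A and MCF10AT1, 5 passed (CD44, ITGA6, KIF13A, RALGPS2 and SLK), 29.4% of those tested against 12.8% of all 8453 genes tested. That background fell by over 1.5 times without any 1 of 5 libraries: to 8.33% and 7.72% without MCF10A replicate 1 or 2, and to 6.89%, 7.14% and 7.77% without MCF10AT1 replicate 1, 2 or 3. The number of the 17 that passed was then 4, 5, 5, 6 and 4 in that order. With transcripts admitted at a share of 1% and a gene count of 10 the background was 6.70% (4 of 19 listed genes passed), and on transcript TPM it was 8.15% (4 of 17). Between MCF10A and MCF10Ca1a, 14 passed (82.4%, against 54.1%), and between the derived lines 9 passed (52.9%, against 47.0%). ARHGEF11, SCRIB and TCF7L2 passed in none. A gene passes when any of its transcripts shifts, which need not be at the ESRP exon.

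**Figure D5:**
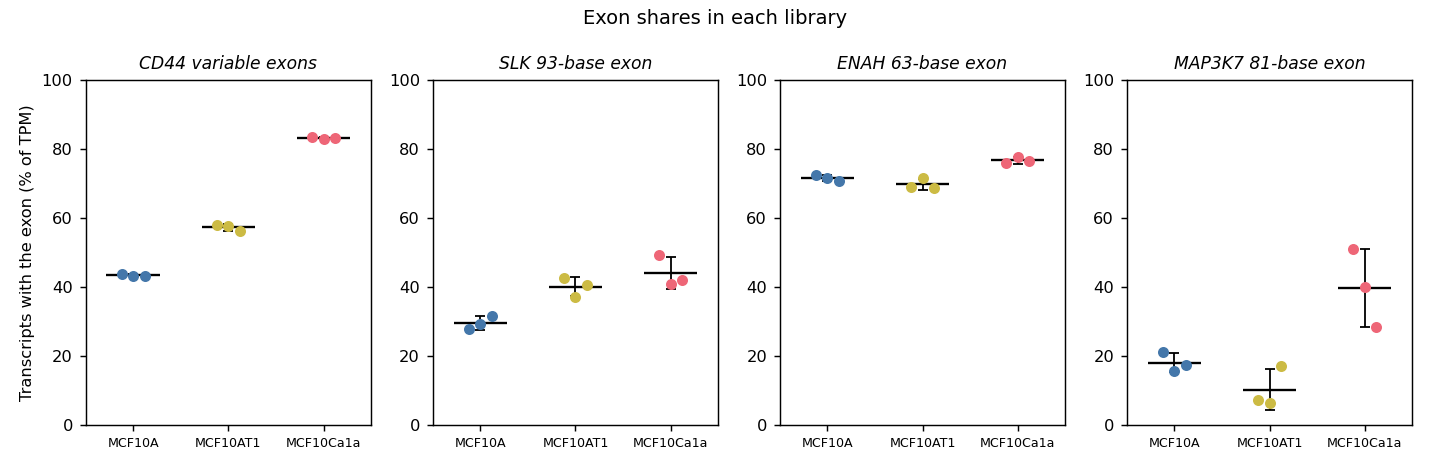
Share of TPM in transcripts that include the named exon or exons, in percent, for CD44, SLK, ENAH and MAP3K7 in each library; lines are means of 3 and bars are SDs. The CD44 lines are separate at about 43.4%, 57.2% and 83.1%, and the MAP3K7 libraries of MCF10Ca1a are the most scattered.

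Other regulators of the same exons had log2 changes between -1.12 and 0.71 against MCF10A. Of 7, 2 passed between MCF10A and MCF10AT1 (28.6%, against 61.6% of all genes tested). Between MCF10A and MCF10Ca1a 6 passed, as did 6 between the derived lines (85.7% each), near the 80.9% and 78.4% of all genes. RBFOX2, which favours mesenchymal exons, rose by 0.34 in MCF10AT1 (edgeR adjusted p = 7.16e-05) and 0.18 in MCF10Ca1a (adjusted p = 0.0054) against MCF10A, the second lost without the filter on low counts (adjusted p = 0.159). PTBP1 fell by 0.39 and 0.70 (edgeR adjusted p = 0.000135 and 1.92e-07). HNRNPM, a competitor of ESRP1 at CD44, fell by 1.12 in MCF10Ca1a (edgeR adjusted p = 3.19e-08), where RBM47 rose by 0.53 (adjusted p = 2.32e-06) and CELF1 by 0.71 (adjusted p = 1.08e-07). MBNL1 fell by 0.14 there (edgeR adjusted p = 0.0163), a call lost on log2(TPM + 1) (-0.02, limma adjusted p = 0.746) and without MCF10Ca1a replicate 3 (adjusted p = 0.073), which also ended its call between the derived lines (adjusted p = 0.0578). With DESeq2 size factors both MBNL1 calls were lost (edgeR adjusted p = 0.0714 and 0.0726). With only the 2 lines compared the call against MCF10A was lost (edgeR adjusted p = 0.0585). Between MCF10A and MCF10AT1, CELF1 was called higher on the authors' length-scaled and scaled counts (0.18 on the log2 scale with each, edgeR adjusted p = 0.0424 and 0.0452) and without MCF10A replicate 1 (adjusted p = 0.00535), and HNRNPM passed without MCF10A replicate 3 (adjusted p = 0.00965). QKI, a regulator of mesenchymal splicing, measured 127.0 ± 7.55, 133.9 ± 0.530 and 125.1 ± 7.07 CPM and passed in none of the 3 comparisons. Without MCF10A replicate 1, QKI was called higher in MCF10AT1 than in MCF10A (0.13, edgeR adjusted p = 0.0275) and lower in MCF10Ca1a than in MCF10AT1 (-0.11, adjusted p = 0.0247). Between the derived lines it was also called lower without the filter (-0.19, edgeR adjusted p = 0.00832), but higher on log2(TPM + 1) (0.21, limma adjusted p = 0.0291) and log2(TPM + 0.1) (0.22, limma adjusted p = 0.0277), so no direction is given for it. RBFOX2, PTBP1 and MBNL1, called lower between the derived lines on counts (-0.16, -0.31 and -0.15, edgeR adjusted p = 0.0152, 0.000533 and 0.0125), were on the other side of 0 and not called on log2(TPM + 1) (0.14, 0.01 and 0.11, limma adjusted p = 0.105, 0.918 and 0.102).

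Of the wider families, OVOL3, ELF5 and SPDEF did not pass the filter. The GRHL relatives of the CP2 subfamily were all tested. TFCP2 fell by 0.95 in MCF10AT1 and 0.69 in MCF10Ca1a on the log2 scale against MCF10A (edgeR adjusted p = 1.03e-08 and 1.30e-07). UBP1 fell by 0.29 and 1.03 (edgeR adjusted p = 0.000157 and 2.18e-10). TFCP2L1, a factor of kidney and exocrine epithelia, rose by 0.69 and 1.36 (edgeR adjusted p = 2.93e-07 and 6.72e-11).

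The tested genes with the pattern across the 9 libraries most like that of GRHL2, by Pearson correlation of log2(TPM + 1), were ANO1 (0.998), CD302 (0.998), RPL39L (0.997), PROB1 (0.997) and TLR4 (0.996). The 9 points fall into 3 lines, so the correlation mostly reflects the order of the line means. All 5 were detected in MCF10A: ANO1, a chloride channel, held a mean of 125 counts there against 4996 to 5410 in MCF10AT1 and 1379 to 1502 in MCF10Ca1a. A switch like that of GRHL2, with at most 3 counts in every MCF10A library and at least 100 in every derived library, was met by 15 of 62666 genes. The reverse, at least 100 counts in every MCF10A library and at most 3 in every derived library, was met by 51. These limits are raw counts, and the MCF10Ca1a libraries were the shallowest (32.9 to 35.2 M counts, against at least 62.9 M in the others). Of the 14 switched-on genes with a symbol, the 5 with the highest TPM in the derived lines were CALB2, MIA, H2AC19, PRSS22 and EPDR1. GRHL2 was the tenth. EPDR1 had 0 counts in the 3 MCF10A libraries, 2533 to 2882 in MCF10AT1 and 978 to 1028 in MCF10Ca1a, and so was, like GRHL2, higher in MCF10AT1 than in MCF10Ca1a.

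Genes around GRHL2 did not share its switch. The nearest tested genes on either side are NACA4P and ZNF706 at lower coordinates and NCALD and RRM2B at higher ones. ZNF706 held 4207, 4532 and 5271 counts in MCF10A and 4128, 4329 and 3935 in MCF10AT1 (log2 change -0.15, edgeR adjusted p = 0.0602). RRM2B, a ribonucleotide reductase subunit, fell by 0.21 in MCF10AT1 (edgeR adjusted p = 0.0031) and 1.76 in MCF10Ca1a (adjusted p = 1.86e-12). NCALD held 1 to 4 counts per library in MCF10A and MCF10AT1 and 13 to 17 in MCF10Ca1a. Within 1000 kb on each side of GRHL2, 15 genes were tested, of which 0 were at the floor in MCF10A, and 2 were higher and 4 lower in MCF10AT1 (edgeR). In MCF10Ca1a against MCF10A, 7 were higher and 7 lower, but NCALD passed the filter only through MCF10Ca1a and so had to be among the higher. Around ESRP1, 10 of 19 were higher and 4 lower in MCF10AT1, and 4 were higher and 8 lower in MCF10Ca1a against MCF10A. Over all genes tested, 29.8% were higher and 31.8% lower in MCF10AT1, and 39.0% and 41.9% in MCF10Ca1a.

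Neighbours of the other members gave a mixed picture. Both lower neighbours of GRHL3 also fell against MCF10A. IFNLR1, an interferon lambda receptor subunit, fell by 2.80 in MCF10AT1 and 1.53 in MCF10Ca1a on the log2 scale (edgeR adjusted p = 4.61e-09 and 6.04e-07). IL22RA1, the interleukin-22 receptor, fell by 1.57 in MCF10AT1 (edgeR adjusted p = 8.08e-06). It held 181, 154 and 132 counts in MCF10A and 2, 2 and 5 in MCF10Ca1a. Its fall of 4.75 in MCF10Ca1a is given without a test, because IL22RA1 passed the filter only through the other lines. On the other side STPG1 and NIPAL3 fell by 0.29 and 0.16 in MCF10AT1 (edgeR adjusted p = 0.000328 and 0.0464) and rose by 0.32 and 0.17 in MCF10Ca1a (adjusted p = 9.92e-05 and 0.0279). STPG1 overlaps the annotated end of GRHL3. The neighbours of OVOL1 (RNASEH2C, AP5B1, CFL1 and MUS81) all fell in MCF10Ca1a, by 0.96 to 2.39 on the log2 scale, while OVOL1 was higher there. Beside ELF3, RNPEP fell by 1.06 and 1.41 (edgeR adjusted p = 8.87e-09 and 1.43e-10). Beside EHF, ABTB2 rose by 1.52 and 2.81 (edgeR adjusted p = 5.47e-10 and 2.66e-13) and CAT, which encodes catalase, fell by 1.28 in MCF10Ca1a (adjusted p = 1.36e-09). Beside ESRP2, PLA2G15 rose by 1.97 in MCF10Ca1a (edgeR adjusted p = 3.16e-11) and SLC7A6 fell by 0.40 (adjusted p = 4.34e-05). Beside GRHL1, KLF11 rose by 0.76 and 0.58 (edgeR adjusted p = 2.62e-07 and 2.65e-06). On the same side ENSG00000260077 rose by 0.96 and 1.19, at 9 to 36 counts per library. On the lower side ENSG00000269973 fell by 0.63 and 0.33 (edgeR adjusted p = 0.00114 and 0.0414). TAF1B there fell by 0.28 in MCF10AT1 (edgeR adjusted p = 0.000256) and did not pass in MCF10Ca1a (adjusted p = 0.228). MGME1, which lies within the annotated span of OVOL2, fell by 0.65 and 0.47 (edgeR adjusted p = 2.71e-07 and 3.53e-06).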

How the data were processed

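Stranded libraries of polyadenylated RNA, 3 for each of 3 cell lines, were sequenced, per the labels. The submitters' processing notes name Salmon and hg38; the annotation and further steps are not given in the sources used here. The authors deposited estimated counts per gene and per transcript, gene counts named length-scaled and scaled, and TPM per gene and per transcript, which were used as deposited. Estimated counts were rounded. With filterByExpr (grouped by line, minimum count 10 and minimum total 15) 17910 of 62666 genes were kept, and they were tested with edgeR 4.0.16 (R 4.3.3; quasi-likelihood, TMM, 9 libraries in 1 fit, Benjamini-Hochberg over all genes tested, threshold 0.05). CPM uses TMM-scaled totals, and SEs come from the F statistic. Transcript shares were tested with limma 3.58.1 on log2 ratios of transcript counts to the rest of the gene (pseudocount 0.5, share of at least 5% in a line, gene count of at least 50) and 1 Simes p for each gene. The uncertainty of dividing reads between transcripts was not used. Exon shares are sums of transcript TPM over GENCODE 29 models, which hold 202821 (80.2%) of the deposited transcripts; 58227 genes (92.9%) had a position there by unversioned identifier.

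On simulated data 200 genes were changed, in MCF10AT1 only. Between MCF10A and MCF10AT1, edgeR recovered 186 (93%) of them, with 10 false calls among 17431 genes. The share test recovered 195 of 200 (97.5%) with 8 false calls among 7875, and 196 (98%) with 18 false calls between the derived lines. The share simulation left out the uncertainty of dividing reads between transcripts. In the data 61.6% to 80.9% of genes tested were called, so the simulation cannot give the error rate of those calls. No replicate libraries were identical. Depth ranged from 32.9 to 69.5 M (mega) counts per library, and floors cover counting error only, since reads are not independent molecules.

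The members and lists were chosen with earlier results of these data known. Named were the 9 members; up to 4 genes that rose and 4 that fell most in MCF10Ca1a against MCF10A in each list, among those past the threshold whose higher line averaged 100 counts or more; every gene of lists of 8 or fewer; the 5 genes most like GRHL2 and 5 with its switch; and 2 neighbours on each side. Gene levels of most genes with ESRP exons and of some neighbours are not described. Alternatives were DESeq2 1.42.0 size factors and Wald test, no filter, the scaled counts, limma on log2(TPM + 1) and log2(TPM + 0.1), the replicate block, only the lines compared, other share settings, and each library left out.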

Additional observations from a re-analysis of the deposited data

How the results depend on the processing

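Of 475 values of the 9 genes under an alternative, 448 kept their direction and their side of the threshold, 24 changed side and 3 changed sign. The number of members called ran from 5 to 7 between MCF10A and MCF10AT1 (6 in the report), was 8 in each alternative between MCF10A and MCF10Ca1a, and ran from 6 to 9 between the derived lines. All 3 sign changes were EHF between MCF10A and MCF10AT1, at 0.00182 with only the lines compared and between -0.0739 and 0.0155 with a library left out. Replicate numbers did not pair the samples: deviations of same-numbered libraries correlated between -0.0597 and 0.0451 in 9 pairs, and 3 of 18 correlations were highest with the own number. With the replicate block, 2 of the 17 genes with ESRP exons passed between MCF10A and MCF10AT1 in place of 5, as did 381 in place of 1080 of all genes (4.51%), and 6 in place of 9 between the derived lines. MIR200CHG was not called between MCF10A and MCF10AT1 with the block (edgeR adjusted p = 0.0558). With transcript counts in place of TPM, the CD44 exon difference was 42.8 percentage points between MCF10A and MCF10Ca1a and 29.4 between the derived lines, and that of CTNND1 was -5.21. With a library left out, the FGFR2 difference ran from -11.7 to 14.5 points between MCF10A and MCF10Ca1a, 14.5 without MCF10Ca1a replicate 1 and 3.51 without MCF10A replicate 3, and from -25.6 to 0.532 between the derived lines, the last also without MCF10Ca1a replicate 1. Some values changed sign with the scale; the cause was not tested. Between MCF10A and MCF10AT1, in the order length-scaled, scaled, log2(TPM + 1) with or without a filter and log2(TPM + 0.1), QKI gave -0.0353, -0.0357, -0.159 and -0.162 and MBNL1 -0.0037, -0.0043, -0.130 and -0.132. With a library left out MBNL1 ran from -0.00212 to 0.0223. FNIP1 gave -0.0696 and -0.0755 on the TPM scales, and OSBPL3 0.00841 and 0.0081 on length-scaled and scaled counts. QKI between MCF10A and MCF10Ca1a gave 0.0174 with either DESeq2 setting, 0.0530 and 0.0538 on TPM, 0.0102 with only the lines compared, and from -0.0625 to 0.0161 with a library left out. Between the derived lines, log2(TPM + 1) and log2(TPM + 0.1) gave 0.0580 and 0.0590 for PKP3, 0.212 and 0.215 for QKI, 0.143 and 0.146 for RBFOX2, 0.0112 and 0.0113 for PTBP1, and 0.109 and 0.110 for MBNL1. GRHL3 and OVOL1 are limited by depth, at 5 to 30 counts per library in the lines where they are low.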
